A study of Mus musculus with 77 samples.

Results

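The comparison set undefeated mice of the inbred strains C57BL/6 (B6) and DBA/2 (D2) against each other, in blood messenger RNA. It used the 10 blood libraries whose column names carry the suffix for controls, 5 B6 and 5 D2, out of 25 blood mRNA libraries and 77 samples in the series, and all 13084 genes of the blood table. The mice were males labelled C57BL/6Crl or DBA/2Crl, which the study's methods give as the substrains C57BL/6NCrl and DBA/2NCrl, 8 weeks old, which served as controls for chronic social defeat stress, a protocol in which a mouse is repeatedly confronted by an aggressor. Each control was housed beside a same-strain neighbour behind a perforated divider, with a new neighbour each day and no physical contact. Trunk blood was taken 6 to 8 days after the defeat period, following a social avoidance test. The study also ran a forced swim test in that interval, and whether each of these 10 mice took it is not stated. Each library came from 1 mouse, so the p-values below measure the spread between animals of 1 strain and 1 supplier. The D2 mouse ED4_15 has a column name of a control but a label of a susceptible mouse, and the D2 mouse ED4_1 has the opposite conflict. ED4_15 was kept among the controls, as its column states, and the results were also computed without it and with the groups of the labels.

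B6 and D2 are among the oldest inbred mouse strains, and they carry different alleles at the major histocompatibility complex (haplotypes b and d), at the natural killer receptor cluster and at the immunoglobulin heavy chain locus. Whole blood RNA is a mixture from reticulocytes, platelets, neutrophils, monocytes and lymphocytes, so that a difference between strains in a gene of 1 cell type can lie in the number of those cells or in the RNA within each cell. These cannot be told apart in bulk samples. Reads of both strains were aligned to the mouse reference genome, which was built from C57BL/6J, so a D2 read can carry mismatches that a B6 read does not. The part of such mismatches in the differences below was not tested.

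Blood RNA separated the strains in 2439 of 13084 genes (18.6%) at an adjusted p under 0.05 and a fold of at least 1.2, which is what "called" means below. Of these, 1426 genes were higher in D2 (10.9% of all genes) and 1013 were lower (7.74%). The called genes had a median absolute log2 fold change of 0.97, and 1157 of them differed by at least 2-fold. The median over all genes was -0.01 on the log2 scale. Fold changes are given as log2, D2 minus B6, from a limma fit of the log2 CPM with Benjamini-Hochberg adjustment over all 13084 genes. The deposited log2 CPM are the reads of a gene scaled to an effective library size, which is not the total of reads. In the D2 mouse ED6_39 this size was 18718234 against 15281405 reads, and in ED6_40 it was 10837027 against 12352219. Where scaling to library totals is named below, the total of reads took its place. The values of the 5 B6 mice and the 5 D2 mice did not overlap in 2177 genes (16.6%), and 1854 of the called genes were among them. In 635 of the called genes, no value of any of the 15 B6 mice overlapped any value of the 10 D2 mice, defeated mice included. Library depth was similar in the strains, from 11637152 to 14969801 reads in genes per B6 mouse and from 11974354 to 15281405 per D2 mouse. Without ED4_15 the count was 2203, of which 2111 were calls of the full comparison. With the groups of the labels it was 2030, of which 1875 were. The mouse names hold a number after the letters, 3 or 4 in B6 and 3, 4 or 6 in D2, whose meaning the labels do not give. With that number as a term of the model, 1447 genes were called, 1428 of them among the 2439.

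Mice whose columns carry the suffix for susceptible, that is for defeated mice classed as susceptible, formed a second set of 5 B6 and 5 D2 animals. Among them was ED4_1, whose label is that of a control. The fold changes above did not use these animals, but the fit took its estimate of spread from all 25 mice. The p-values of both sets share that estimate. In this second set, 1889 genes were called (14.4%), 857 higher in D2 (6.55%) and 1032 lower (7.89%). Of the 2439 genes called in undefeated mice, 2182 (89.5%) had the same sign in susceptible mice, against 64.8% of all genes. Of these 2439, 1267 were also called there with the same sign (51.9% of the calls in undefeated and 67.1% of those in susceptible mice), and 1 was called with the opposite sign. The interaction of strain and defeat called 0 genes by limma (0.0%), also with sample weights and with voom precision weights, while 1322 genes had an unadjusted p under 0.05. The smallest adjusted p of the interaction was 0.224.

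**Figure D1:**
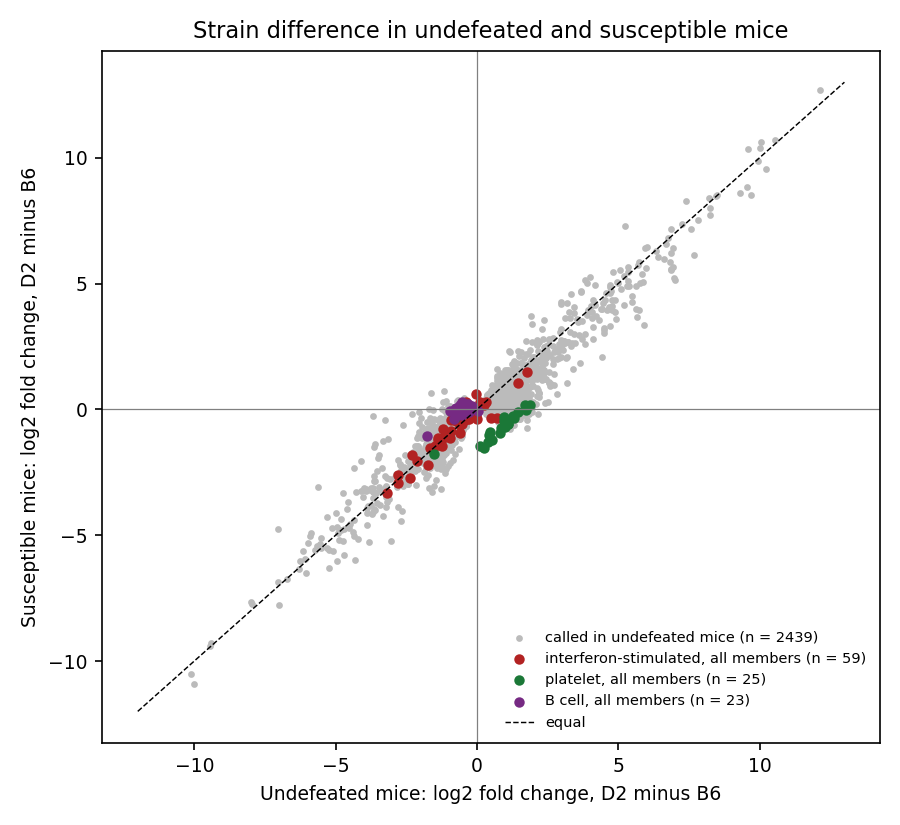
Each point is a gene, with its log2 fold change between D2 and B6 in undefeated mice on the x axis and in susceptible mice on the y axis (5 mice per strain in each set). Grey points are the 2439 genes called in undefeated mice, and coloured points are all members of the interferon-stimulated, platelet and B cell lists. The dashed line marks equal values. The called genes had the same sign in both sets in 89.5% of cases, with a median absolute value of 0.97 in undefeated mice, where they were called, and 0.62 in susceptible mice, and the platelet genes lie below the line.

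The largest differences were genes read in 1 strain and at or near 0 in the other. H2-Ea-ps (chr17:34341959-34344645 of GRCm38, minus strand), the Ea chain gene of the class II molecule I-E, is annotated as a polymorphic pseudogene because C57BL/6 mice lack a functional copy. It had 2 reads over all 5 B6 mice and 16240 reads over the 5 D2 mice, a ratio of 8010 (exact 95% counting interval 2220 to 66200). The D2 values were 7.94, 8.15, 7.57, 7.97 and 7.36 log2 CPM, and those of B6 were all at or below -2.54, so that the strains lay far apart (adjusted p = 5.96e-18, limma). Ifi202b (chr1:173962568-173982744), a member of the interferon-inducible p200 family that binds DNA, had 0 reads in every B6 mouse and 2895 reads in D2, at least 952-fold higher against a floor of 3 reads over the group. Cpne4, a copine that binds membranes in the presence of calcium, was at 0 reads in every B6 mouse and at 3.41 to 3.87 log2 CPM in D2, at least 299-fold higher. Sult4a1, a sulfotransferase known from brain, had 2 reads in B6 and 2548 in D2, a ratio of 1260 (interval 348 to 10400). Gm10499, an unprocessed pseudogene within the class I region of chromosome 17, had 0 reads in B6 and 2175 in D2, at least 716-fold higher. Rprl3, annotated as a ribonuclease P RNA-like gene, had 4 reads in B6 and 7025 in D2. Intervals and floors cover counting error only.

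In the other direction, Trim12a (chr7:104299894-104315466), a tripartite motif gene of a cluster of antiviral factors, had 3461 reads in the B6 mice and 1 read in the D2 mice, a ratio of 3510 (interval 629 to 139000). Its B6 values, 5.6, 5.8, 5.51, 5.58 and 5.67 log2 CPM, were all above its highest D2 value, -2.98 (adjusted p = 6.29e-19, limma). Gvin1 (chr7:106156556-106215326), a very large interferon-inducible GTPase, had 1836 reads in B6 and 0 in D2, at least 620-fold lower in D2. Gm1966, an unprocessed pseudogene on the same chromosome, was at 7.09 to 7.60 log2 CPM in B6 and at 2.30 to 2.77 in D2 (log2 fold change -4.82 ± 0.18 SE). Cib3, a calcium- and integrin-binding protein, was at 642 reads in B6 and 0 in D2, at least 217-fold lower. Skint3, a gene of the Skint family that acts on epidermal T cells, was at 673 and 0 reads, at least 227-fold lower, and the pseudogene Zfp125 at 267 and 0 reads, at least 90.2-fold lower. Gm22513, annotated as a small nuclear RNA, was among the best measured of these genes, at 8.60 to 9.17 log2 CPM in B6 and -1.63 to -0.04 in D2 (adjusted p = 2.69e-21). Cacna1e, a voltage-gated calcium channel subunit, was at 3.65 to 4.07 log2 CPM in B6 and no higher than -1.53 in D2. In all, 16 called genes had 0 reads in every undefeated B6 mouse and 15 had 0 reads in every undefeated D2 mouse. The authors' filter on low values kept genes of at least 1 CPM in at least 6 samples. Of the 1426 genes called higher in D2, 119 reached 1 CPM in no B6 mouse, defeated mice included. Of the 1013 called lower, 119 reached it in no D2 mouse. Such genes entered the table through 1 strain only and had to differ.

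Some of the best supported differences were between 2 clearly measured levels. Apobec3 (chr15:79891659-79915906), a cytidine deaminase that restricts retroviruses, was at 6.18, 6.05, 5.85, 5.8 and 6.02 log2 CPM in B6 and at 2.49, 2.21, 2.28, 2.44 and 2.33 in D2. The D2 level was lower by 3.63 ± 0.11 (SE) on the log2 scale, with log2 fold change -3.63 and adjusted p = 5.96e-18 by limma. Mlycd, malonyl-CoA decarboxylase, was at 2.40 to 3.29 log2 CPM in B6 and 6.63 to 7.57 in D2 (log2 fold change 4.19 ± 0.19, adjusted p = 2.00e-14). For a single gene whose 5 B6 and 5 D2 values do not overlap, the two-sided exact permutation test gives p = 0.00794, the smallest p that 5 against 5 mice allow.

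**Figure D2:**
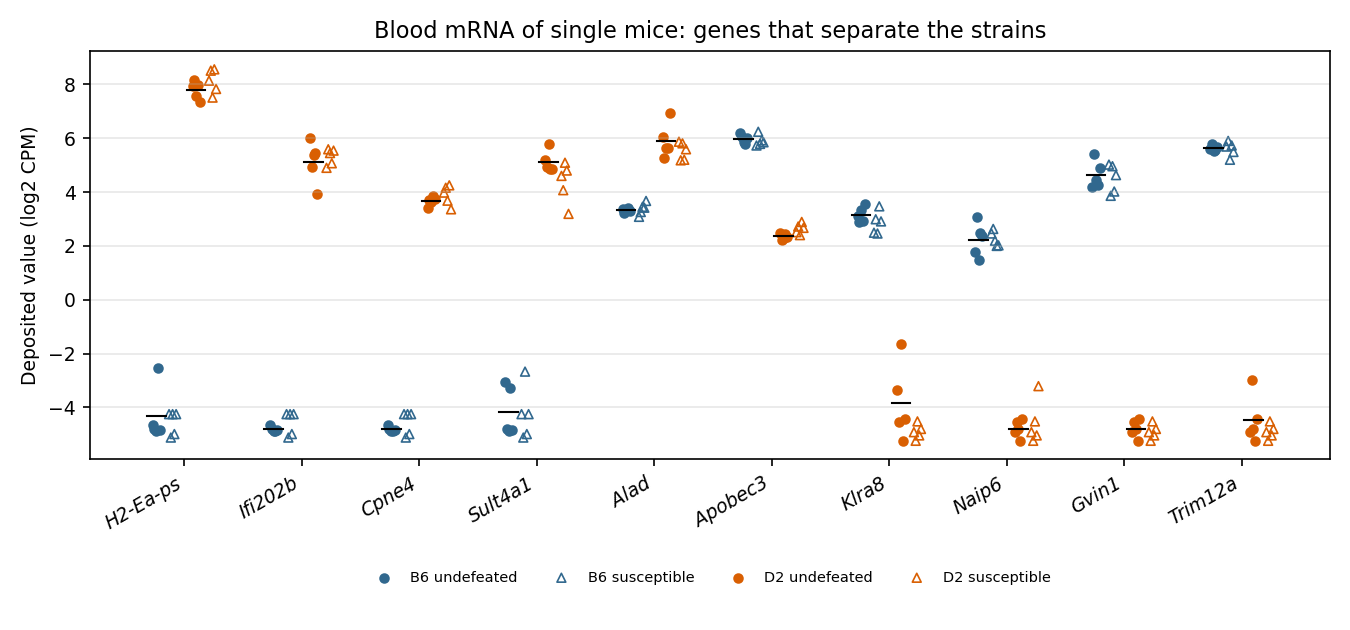
Deposited log2 CPM (y axis) of 10 genes (x axis) in single mice. Filled circles are the undefeated B6 and D2 mice with a black line at their mean, and open triangles are the susceptible mice. The 5 genes on the left were higher in every D2 mouse and the 5 on the right lower, and values near -5 are 0 reads.

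Of 31 genes listed for known sequence or copy number differences between B6 and D2 stocks, 28 were measured, and 13 were called, 5 higher and 8 lower in D2. The list was not limited to the substrains used here. Beside H2-Ea-ps and Ifi202b, Alad (chr4:62509169-62519918), the second enzyme of heme synthesis, whose gene is duplicated in D2, was at 3.36, 3.21, 3.32, 3.41 and 3.31 log2 CPM in B6 and at 6.05, 5.28, 5.63, 5.64 and 6.94 in D2. Its log2 fold change was 2.59 ± 0.26 (adjusted p = 3.67e-08, limma), and it was 2.16 in susceptible mice. Slamf1, a lymphocyte and platelet surface receptor, was higher by 1.85 ± 0.33 in undefeated mice and had a log2 fold change of 0.33 in susceptible mice. Of the chromosome 7 Trim cluster, Trim30d (-5.30 ± 0.38) and Trim34a (-3.67 ± 0.21) were lower in D2 together with Trim12a. Klrd1, the CD94 chain of natural killer receptors, was lower by 0.94 ± 0.21 (log2 fold change -0.94), and Wdfy1, an adaptor of Toll-like receptor signalling, was lower by 0.56 ± 0.14 (log2 fold change -0.56). After scaling to library totals both calls were lost (adjusted p by limma 0.0892 and 0.0823), and that of Wdfy1 also with the number of the mouse name as a term (0.0841). The calls of Mx1, an antiviral GTPase (-0.91), of the lymphocyte receptors Slamf7 (-0.74) and Ly9 (-0.49) and of the inflammasome sensor Nlrp1b (0.91) were each lost when any 1 of 5 to 8 mice was left out, at adjusted p up to 0.138. Without ED4_15 the adjusted p by limma was 0.076 for Mx1 and 0.0952 for Slamf7. The other 15 members were not called. Glo1, glyoxalase 1, whose gene is duplicated in some D2 stocks, was among them, at 6.07 to 6.62 log2 CPM in B6 and 5.41 to 6.25 in D2 (log2 fold change -0.58 ± 0.30, adjusted p = 0.202). It was called lower under 4 alternatives, at adjusted p by limma of 0.029 with only the 10 undefeated mice, 0.0385 with sample weights, 0.0171 after scaling to library totals and 0.0453 after quantile normalization. The 13 calls of 28 members are 46.4%, against 18.6% of all genes, in a list chosen for differences between these strains.

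Type I interferons induce a shared set of antiviral genes, mainly through a transcription factor complex that binds the interferon-stimulated response element in promoters, and Irf7 amplifies the response. In blood of undefeated mice, 32 of 59 interferon-stimulated genes were lower in D2, 3 were higher and 24 were not called, against 7.74% of all genes lower and 10.9% higher. The median log2 fold change of the list was -0.52, against -0.01 for all genes. Irf7 (chr7:141262706-141266481), the interferon regulatory factor, was at 7.05, 6.63, 7.41, 7.10 and 7.00 log2 CPM in B6 and at 4.82, 4.35, 4.18, 3.93 and 3.93 in D2. Every D2 mouse lay below every B6 mouse, by 2.79 ± 0.24 on average (log2 fold change -2.79, adjusted p = 1.99e-09, limma), also when all 25 mice are taken. Oasl2, a 2'-5'-oligoadenylate synthetase-like protein, was at 5.96, 6.12, 6.74, 6.25 and 6.68 in B6 and at 3.98, 3.15, 3.98, 3.94 and 2.68 log2 CPM in D2 (-2.80 ± 0.25). Oas3, which makes the oligoadenylates that activate RNase L, differed by -2.38 ± 0.29, and Gbp8, a guanylate-binding protein, by -3.17 ± 0.27. Isg15, a ubiquitin-like modifier, was at 7.89 to 8.17 in B6 and 5.23 to 6.65 in D2 (-2.12 ± 0.37), and Ifit1, which binds foreign RNA, at 6.02 to 6.78 and 4.57 to 5.06 (-1.72 ± 0.22).

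The 3 interferon-stimulated genes that were higher in D2 were Xaf1, a pro-apoptotic factor (1.78 ± 0.21), Irgm2, an immunity-related GTPase (1.46 ± 0.25), and Ifit2 (0.71 ± 0.24). The call of Ifit2 was lost when any 1 of 6 mice was left out, at adjusted p up to 0.143. In susceptible mice 23 of the 59 genes were called lower in D2 and 2 higher, and the log2 fold changes of Irf7 (-2.94), Oasl2 (-2.61), Isg15 (-2.05) and Ifit1 (-2.22) were close to those of undefeated mice. The interaction of strain and defeat had an unadjusted p under 0.05 in 3 of the 59 genes (5.08%, against 10.1% of all genes). The number of lower members depended on scaling: it was 20 when values were scaled to the total of each library, with a median of -0.48, and it lay between 27 and 32 when single mice were left out. Isg15, Ifit1 and the 3 higher genes were chosen for naming after their values were seen.

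**Figure D3:**
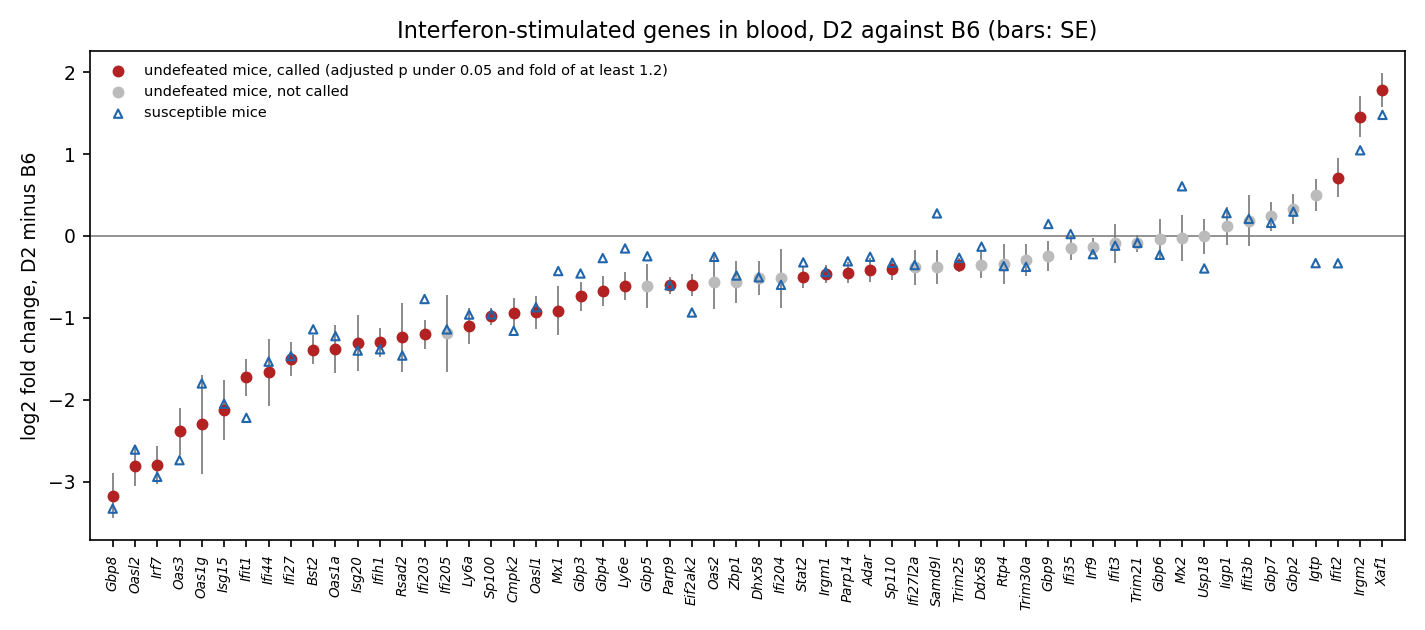
log2 fold change, D2 minus B6 (y axis), of 58 interferon-stimulated genes (x axis, in order of the value in undefeated mice). Circles with SE bars are undefeated mice, red where called, and open triangles are susceptible mice. Most of the called genes lie below 0, and 3 lie above.

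Promoter sequences from RefSeq (GRCm38.p6, 250 bases before to 50 after the start) were searched on both strands for GAAANNGAAA, in which N is any base, the core of the interferon-stimulated response element. Overlapping matches counted once per gene. Of the 59 interferon-stimulated genes 39 had a promoter entry, and 24 of these held the motif (61.5%), against 3.99% of all 27025 genes with an entry. Among the genes lower in D2 it was 13 of 23 (56.5%), and among the remaining interferon-stimulated genes 11 of 16 (68.8%). The matches of 3 of the lower genes are shown as an example of the shared element, upstream of the start on the strand of the gene, with the motif, or its reverse complement, in capitals. They lie at chr4:156200871-156200900 (Isg15, minus strand), chr19:34640794-34640823 (Ifit1, plus strand) and chr5:120777715-120777744 (Oas3, minus strand). These are reference letters, so differences between the strains in these promoters were not examined.
Isg15: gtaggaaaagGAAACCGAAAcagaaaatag
Ifit1: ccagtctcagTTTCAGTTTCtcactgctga
Oas3: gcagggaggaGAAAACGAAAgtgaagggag

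Class I molecules of the major histocompatibility complex present peptides to CD8 T cells and class II molecules to CD4 T cells. Of 33 measured genes of this list, 4 were higher and 9 lower in D2 (39.4%, against 18.6% of all genes), with a median of -0.31. H2-K1, a classical class I heavy chain, was at 9.36, 9.42, 9.30, 9.09 and 9.36 log2 CPM in B6 and at 7.79, 7.60, 8.16, 8.07 and 7.58 in D2 (-1.47 ± 0.17, adjusted p = 6.32e-07, limma). The class Ib gene H2-Q7, known for the Qa-2 antigen, was at 4.87 to 5.09 in B6 and 3.10 to 3.32 in D2 (-1.77 ± 0.17), and the class II beta gene H2-Eb2 at 4.23 to 5.26 and 0.61 to 2.12 (-3.08 ± 0.28). Beside H2-Ea-ps, the genes higher in D2 were class Ib genes. H2-Q2 had up to -0.75 log2 CPM in B6 and 3.35 to 4.24 in D2 (6.98 ± 0.64). H2-Q1 had 1 read in B6 and 177 in D2, a ratio of 175 (exact interval 31.0 to 6940), and H2-T24 was at 6.26 to 6.97 in B6 and 8.52 to 9.68 in D2 (2.20 ± 0.24). These genes are members of a family of close copies that differ in sequence between the haplotypes, and the calls per gene are uncertain to the extent that reads of 1 copy align to another. H2-K1, H2-Q7 and H2-T24 were chosen for naming after their values were seen.

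The natural killer receptors of the Ly49 family, encoded by the Klra genes of chromosome 6, recognise class I molecules, and their number differs between inbred strains. Of 31 measured genes of natural killer and cytotoxic cells, 13 were lower and 2 higher in D2, against 7.74% of all genes lower and 10.9% higher. Any member that reached 1 CPM, the level of the authors' filter, in mice of 1 strain only had to differ. Such members were not counted for this list. Apart from the granzyme Gzmb (-2.18), the lower members were receptor genes whose names begin with Klr. Ncr1 (0.31), Prf1 (-0.33), Nkg7 (-0.45) and Eomes (-0.39) were among the members not called. Klra8 (chr6:130115226-130129898), which encodes the activating receptor Ly49H that D2 mice lack, was at 3.11, 2.88, 3.34, 2.91 and 3.54 log2 CPM in B6 and had 5 reads over the 5 D2 mice (-7.00 ± 0.45, adjusted p = 9.75e-12, limma). Klra4 (-5.99 ± 0.45) and Klra9 (-3.94 ± 0.39) were also lower in every D2 mouse. Klra17 was higher, at 0.64 to 1.74 in B6 and 2.79 to 4.40 in D2 (2.51 ± 0.34). Gzma, a granzyme of the killing granules and among the best measured genes of the list, was at 6.17 to 7.00 in B6 and 5.68 to 7.70 in D2 (-0.34 ± 0.30, adjusted p = 0.493), with overlapping values. The D2 mouse ED6_38 held the highest Gzma value of all 10 mice and the highest Klra8 value of the D2 mice, -1.65. Without ED6_38, Gzma was called lower in D2 (-0.70, adjusted p = 0.0462 by limma). The number of lower members lay between 11 and 17 when single mice were left out. It was 8 among genes with a mean of at least 2 log2 CPM, a filter that leaves fewer genes to test. The summed level of the 6 natural killer markers was 149 to 227 CPM in B6 and 95.5 to 357 in D2.

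Immunoglobulin and T cell receptor variable genes encode the part of each receptor that binds antigen. Of 64 measured immunoglobulin variable genes, 29 were lower and 5 higher in D2 (53.1% called, against 18.6% of all genes). Of 19 T cell receptor variable genes 9 were lower and 5 higher (73.7%). Of the 29 lower immunoglobulin variable genes, 13 reached 1 CPM, the level of the authors' filter on low values, in no D2 mouse, so they entered the table through the B6 mice and had to differ. The same was not counted for the T cell receptor variable genes. Ighv1-9 was at 1.33 to 2.13 log2 CPM in B6 and no higher than -2.50 in D2 (-5.29 ± 0.58), and Ighv1-19 at 0.62 to 1.72 and no higher than -2.61 (-4.94 ± 0.47). Ighv3-2 was at most -2.47 in B6 and at 2.30 to 2.89 in D2 (6.00 ± 0.55). Ighv1-14 had 0 reads in B6 and 92 in D2, at least 30.3-fold higher. Variable genes form families of related copies whose repertoire differs between strains and which the reference holds in the B6 form, so that the values per gene are uncertain.

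B cell genes leaned 1 way: 11 of 23 were lower in D2 and 0 were higher by limma (47.8%, against 18.6% of all genes). Of the 23, 22 had a negative log2 fold change, with a median of -0.58. Cd22, an inhibitory receptor of B cells, was at 6.77, 6.82, 6.41, 6.22 and 6.79 log2 CPM in B6 and at 5.03, 5.22, 4.66, 4.97 and 4.36 in D2 (-1.75 ± 0.22, adjusted p = 2.13e-06). The transcription factor Spib (-0.80 ± 0.21) and the adaptor Bank1 (-0.78 ± 0.21) did not overlap between the strains either. Both calls were lost after scaling to library totals (adjusted p by limma 0.19 and 0.196) and with the number of the mouse name as a term (0.0916 and 0.0765). The summed level of 6 B cell markers was 717 to 1010 CPM in B6 and 430 to 661 in D2. The count of lower members was 5 with the groups of the labels, 1 after scaling to library totals, 1 with the number of the mouse name as a term, and 19 when only the 10 undefeated mice were fitted. It was 5 without EC3_15 or without ED6_38, 7 without EC3_12 or ED6_40, and 6 without EC4_20. In susceptible mice 1 of the 23 was called, the median was -0.09, and Cd22 had a log2 fold change of -1.06.

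T cell genes were called in 5 of 24 (20.8%, against 18.6% of all genes), 3 lower and 2 higher, with a median of 0.04, so their share was near that of all genes. Cd8b1, the beta chain of the CD8 coreceptor, was at 5.01 to 5.43 log2 CPM in B6 and 4.29 to 4.71 in D2 (-0.80 ± 0.16) and was the best supported of them. After scaling to library totals its adjusted p was 0.132 by limma, with a log2 fold change of -0.76.

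Platelets carry RNA from their precursors, the megakaryocytes. Of 25 platelet genes 12 were higher and 1 was lower (52.0% called, against 18.6% of all genes). Of the 25, 23 had a positive log2 fold change, with a median of 0.97. Pf4 was among the members not called (0.44, adjusted p = 0.398 by limma). Ppbp, the platelet basic protein stored in alpha granules, was at 10.79, 9.39, 10.96, 11.51 and 10.44 log2 CPM in B6 and at 12.14, 12.26, 13.04, 12.04 and 12.26 in D2 (1.73 ± 0.37, adjusted p = 0.00139, limma). P2rx1, an ATP-gated channel of platelets, was at 5.47 to 7.12 in B6 and 8.13 to 9.07 in D2 (1.86 ± 0.34). Gp1bb, a subunit of the von Willebrand factor receptor, was at 2.45 to 4.15 and 4.92 to 6.09 (1.72 ± 0.33). F13a1, the coagulation factor XIII A chain of platelets and monocytes, was at 7.11 to 8.55 and 9.20 to 10.17 (1.69 ± 0.30). The values of these 4 genes did not overlap between the strains. The lower gene was Selp, P-selectin, at 1.93 to 2.75 in B6 and 0.20 to 1.75 in D2 (-1.52 ± 0.34). The summed level of 6 platelet markers was 1430 to 5430 CPM in B6 and 6640 to 13000 in D2. The number of higher members was 7 without the B6 mouse EC3_15, the lowest in all 4 of these genes, and 7 without the D2 mouse ED6_38, the highest in all 4.

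In susceptible mice 0 of the 25 genes were higher in D2 by limma and 6 were lower, with a median of -0.58, and the log2 fold changes of Ppbp (-0.02), P2rx1 (0.17), Gp1bb (0.10) and F13a1 (0.16) were near 0. Selp remained lower, at -1.78. The interaction of strain and defeat had an unadjusted p under 0.05 in 23 of the 25 genes (92.0%, against 10.1% of all genes), with a median of -1.60, and the smallest adjusted p among them was 0.224.

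Red cell genes went in both directions, 6 higher and 4 lower of 29 (34.5%, against 18.6% of all genes). Ermap, an erythroid membrane protein that carries the Scianna blood group, was at 5.36 to 6.27 log2 CPM in B6 and 7.66 to 9.04 in D2 (2.12 ± 0.34), and Tal1, a transcription factor of red cell and platelet precursors, at 4.43 to 5.92 and 6.74 to 7.46 (1.70 ± 0.29). Car2, carbonic anhydrase 2, was at 11.38 to 12.32 in B6 and 9.10 to 10.89 in D2 (-1.92 ± 0.46). Globin RNA was depleted before sequencing, and Hba-a2, an alpha-globin gene that was lower in D2, is described below with its copy. The beta-globin gene Hbb-bs was at 14.89 to 15.30 in B6 and 14.00 to 15.61 in D2 (-0.23 ± 0.61), and Hbb-bt had a log2 fold change of 0.60 ± 0.43, which was called after scaling to library totals (adjusted p = 0.0337 by limma) and after quantile normalization (0.00119). Of 14 heme synthesis and breakdown genes, Alad and the mitochondrial glycine carrier Slc25a38 (1.39 ± 0.24) were higher and biliverdin reductase Blvrb (-1.55 ± 0.36) was lower in D2, while 11 were not called. The share called was 21.4%, near the 18.6% of all genes.

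Genes of neutrophils and monocytes gave few calls. Of 23 neutrophil genes, the chemokine receptor Cxcr2 (1.2 ± 0.34) and the formyl peptide receptor Fpr2 (1.15 ± 0.33) were higher, and the histone-citrullinating enzyme Padi4 (-1.54 ± 0.41) was lower. Without ED6_38 the adjusted p by limma was 0.0578 for Cxcr2 and 0.0539 for Fpr2, and without EC3_15 it was 0.0505 for Cxcr2. With the number of the mouse name as a term it was 0.163 and 0.113, and after scaling to library totals 0.0532 and 0.0688. With the groups of the labels it was 0.05 for Padi4, which was then not called. Of 22 monocyte genes only F13a1, which platelets share, was called. The summed level of 6 monocyte markers, F13a1 included, was 438 to 616 CPM in B6 and 783 to 1510 in D2. Of these 6 only F13a1 was called, while Csf1r (0.26), Ccr2 (0.73), Ly6c2 (-0.51), Cx3cr1 (0.04) and Ms4a6c (0.05) were not. Of 15 eosinophil and basophil genes 1 was higher and 1 lower (13.3%, against 18.6% of all genes). None of the 8 measured skeletal muscle and skin genes, which trunk blood could carry, was called by limma, against 18.6% of all genes. The summed level of 5 such markers was 12.6 to 59.1 CPM in B6 and 8.09 to 77.3 in D2, with 3 keratins not measured.

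Innate sensors were called in 10 of 30 (33.3%, against 18.6% of all genes), 6 higher and 4 lower. Naip6 (chr13:100281121-100317674), of the family that senses bacterial flagellin and secretion systems, was at 1.77, 3.06, 1.47, 2.49 and 2.36 log2 CPM in B6 and had 0 reads in D2, at least 119-fold lower. Tlr1, which recognises bacterial lipoproteins, was at 4.74 to 5.39 in B6 and 3.14 to 3.47 in D2 (-1.82 ± 0.18, adjusted p = 4.15e-08). Nod2, a sensor of bacterial muramyl dipeptide, was at -1.83 to -0.75 in B6 and -0.04 to 1.61 in D2 (2.39 ± 0.54), and Nlrp1a, an inflammasome sensor, at 0.68 to 1.90 and 2.74 to 3.69 (2.03 ± 0.35). Of 20 Fc and SLAM receptor genes 2 were higher and 5 lower (35.0%, against 18.6% of all genes). Fcmr, the receptor for immunoglobulin M, was lower by 1.19 ± 0.23 (log2 fold change -1.19).

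In glutathione, aldehyde and drug metabolism 5 of 36 were called (13.9%, below the 18.6% of all genes). Catalase, encoded by Cat, which breaks down hydrogen peroxide, was at 11.82 to 12.49 log2 CPM in B6 and 9.92 to 10.93 in D2 (-1.67 ± 0.42), and the omega-class glutathione transferase Gsto1 at 3.79 to 5.83 and 2.81 to 3.27 (-1.88 ± 0.39). The theta-class transferase Gstt1 was higher in D2 (1.37 ± 0.29). Nuclear genes of oxidative phosphorylation were called in 12 of 75 (16%, against 18.6% of all genes), 5 higher and 7 lower. Among them Cox6a1, a cytochrome c oxidase subunit, was at 6.66 to 7.09 in B6 and 5.43 to 6.08 in D2 (-1.19 ± 0.25), and Atp5j2, an ATP synthase subunit, was higher (0.68 ± 0.16), a call that was lost with the number of the mouse name as a term (adjusted p = 0.0638 by limma). None of the 9 measured genes of the mitochondrial genome was called by limma, and their median was -0.30. Ribosomal protein genes were called in 19 of 85 (22.4%, against 18.6% of all genes), 12 higher and 7 lower. Rps4l (-3.33 ± 0.59), which is annotated as a transcribed processed pseudogene and counted in both lists, had the largest difference, followed by Rpl34 (-1.11 ± 0.13), Rpl29 (-0.96 ± 0.13) and Rps28 (-0.83 ± 0.12). Of 16 genes of the glucocorticoid receptor and its targets 1 was higher and 1 lower (12.5%, below the 18.6% of all genes). The lower, Klf9, a stress-hormone-induced transcription factor, was at 1.51 to 2.72 in B6 and 0.42 to 1.66 in D2 (-1.15 ± 0.33), and its adjusted p by limma was 0.0537 without the D2 mouse ED6_40 and 0.0694 after scaling to library totals.

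**Figure D4:**
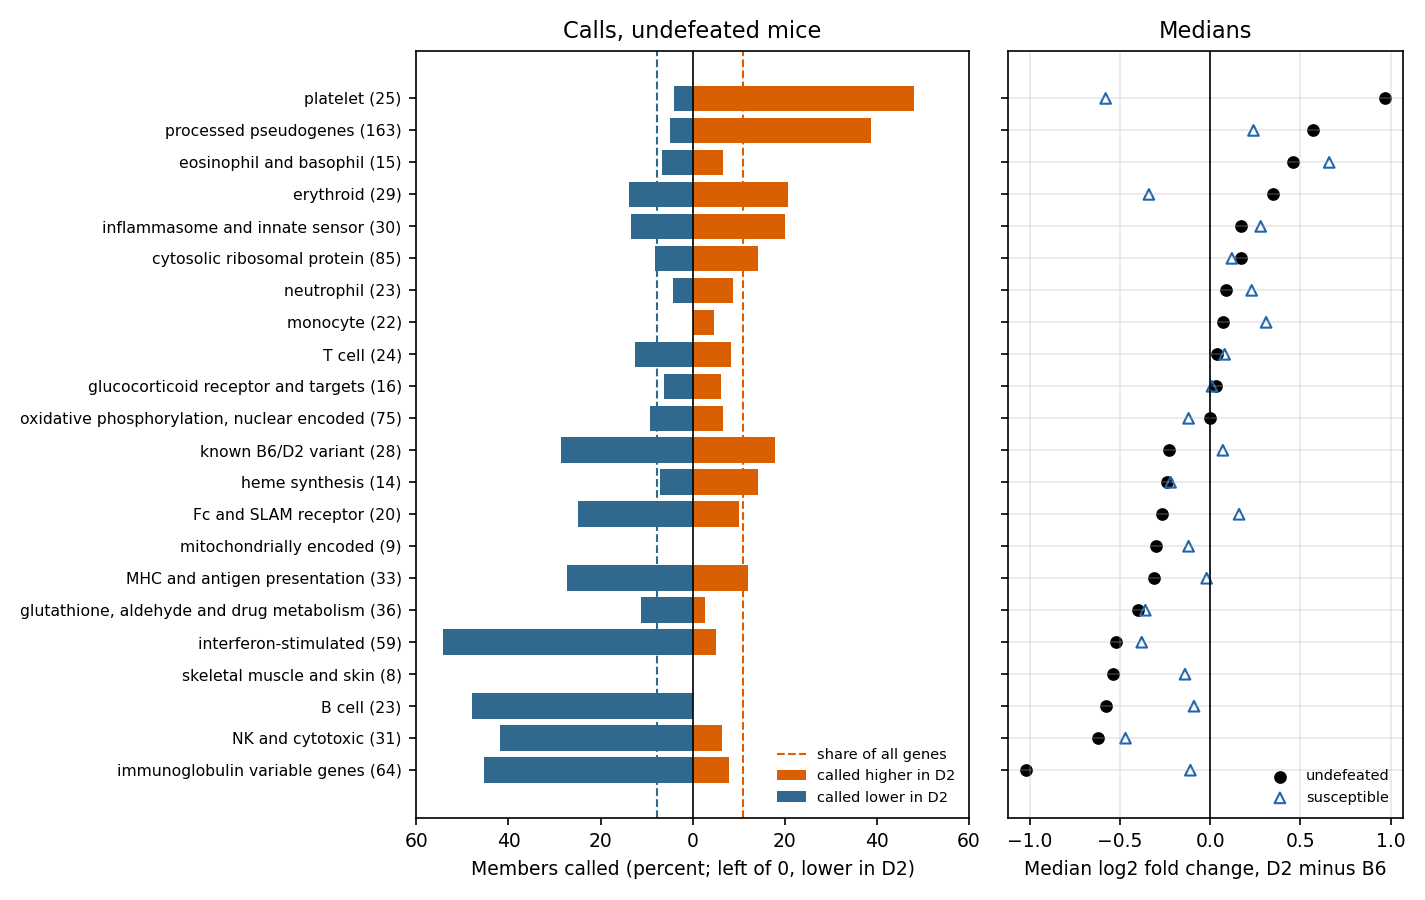
Left, percent of the measured members of each list (number in parentheses) called higher in D2 (right of 0) or lower (left of 0) in undefeated mice, with the shares of all genes as dashed lines at 10.9 and 7.74. Right, the median log2 fold change of each list in undefeated mice (circles) and in susceptible mice (triangles). Interferon-stimulated, B cell, natural killer and immunoglobulin variable genes extend to the left and platelet genes and processed pseudogenes to the right, and the platelet median changes sign between the sets of mice.

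Processed pseudogenes, which are copies of spliced mRNAs inserted elsewhere in the genome, can be transcribed or can take up reads of the genes they copy. Of 163 measured, 63 were higher in D2 and 8 lower (43.6% called), against 18.1% of 11750 protein-coding genes, with 1251 higher and 880 lower. Of the 63 higher pseudogenes, 38 reached 1 CPM in none of the 15 B6 mice, so that they passed the authors' filter only through D2 mice and had to differ, as did 57 of the 1251 higher protein-coding genes. Of the 8 lower pseudogenes, 2 reached it in no D2 mouse. The counts are therefore a description of the genes in the table and support no difference between the classes. For 145 of the 163, a measured protein-coding gene shared at least 10% of the 25-base stretches of the pseudogene and was taken as its parent. Of the 61 pseudogenes with a parent that were higher in D2, 41 had a parent that was not called, 15 had a parent that was lower and 5 a parent that was higher. Among all 11750 protein-coding genes, 880 were lower and 1251 higher. Some pseudogenes shared a parent, with 60 distinct parents for the 68 called pseudogenes, and the counts of parents were not tested. Gm8730 (chr8:102864845-102865798), a copy of Rplp0, had 22 reads in B6 and 25547 in D2, and its values were -1.18, -1.98, -1.41, -0.77 and -3.25 log2 CPM in B6 and 8.39, 8.49, 8.55, 8.14 and 9.02 in D2 (10.24 ± 0.49). Its parent Rplp0, an acidic ribosomal protein, was at 10.70 to 11.17 in B6 and 10.60 to 11.40 in D2 (0.06 ± 0.26). Rpsa-ps10 was higher by 10.03 ± 0.53 beside a log2 fold change of 0.02 ± 0.13 for Rpsa. Gm14513 (9.60 ± 0.51) and Gm10260 (10.06 ± 0.68), the latter annotated as protein-coding, were read in the same way, with 9 reads each in B6 and 7126 and 8625 in D2. Among genes with a mean of at least 2 log2 CPM, 10 processed pseudogenes were called higher, of 1093 genes called higher under that filter. The number of processed pseudogenes that passed it is not given here, so no share can be set beside the 10.

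In some pairs the parent was lower and the copy higher in D2. Atp6v0c (chromosome 17), the proteolipid subunit of the proton pump of lysosomes, was at 3.54, 3.15, 3.15, 3.06 and 2.61 log2 CPM in B6 and at -0.68, -4.56, -2.01, -2.42 and -0.53 in D2 (-5.15 ± 0.50, adjusted p = 2.90e-08). Its copy Atp6v0c-ps2 (chromosome 6) had 2 reads in B6 and 212 in D2, a ratio of 105 (exact interval 28.6 to 870). Btg3, an antiproliferative gene, differed by -3.62 ± 0.42 and its copy Gm7334 by 3.35 ± 0.70. Srp9, a subunit of the signal recognition particle, differed by -1.55 ± 0.13 and its copy Gm13736 by 5.47 ± 0.64. The chaperone Hspa8 differed by -0.90 ± 0.19, at adjusted p = 0.0525 by limma after scaling to library totals, and its copy Gm15459 by 4.72 ± 0.28, and Rps15a by -0.67 ± 0.14 and its copy Rps15a-ps8 by 8.21 ± 0.45. These parents, and these copies, were chosen for naming after their values were seen.

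Aligned sequences show how alike these copies are. The coding sequence of Atp6v0c has 465 bases, of which 464 are identical in Atp6v0c-ps2. The alpha-globin genes Hba-a1 and Hba-a2 differ in 1 of 426 coding bases, Rpsa and Rpsa-ps10 in 6 of 885, and Rps15a and Rps15a-ps8 in 30 of 387 aligned bases. Hba-a2 was at 9.44, 8.29, 8.94, 8.75 and 8.85 log2 CPM in B6 and no higher than -0.47 in D2, which is 33011 reads against 30 (adjusted p = 2.83e-14, limma), while Hba-a1 was at 8.78 to 9.86 in B6 and 8.94 to 10.39 in D2 (0.37 ± 0.37). How reads that match both copies were counted is not given in the sources used here, and the values of either copy alone are uncertain. For 3 pairs the 60-base coding stretch with the most differences is printed from GRCm38, on the strand of the gene, with the bases that differ within the pair in capitals. The stretches lie at chr17:24164823-24164882 (Atp6v0c, minus strand), chr6:37806165-37806224 (Atp6v0c-ps2, plus), chr11:32284284-32284343 (Hba-a1, plus), chr11:32297101-32297160 (Hba-a2, plus), chr7:118115144-118115203 (Rps15a, minus) and chr4:53791359-53791418 (Rps15a-ps8, minus).
Atp6v0c: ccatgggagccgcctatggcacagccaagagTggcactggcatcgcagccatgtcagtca
Atp6v0c-ps2: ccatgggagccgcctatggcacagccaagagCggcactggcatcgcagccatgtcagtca
Hba-a1: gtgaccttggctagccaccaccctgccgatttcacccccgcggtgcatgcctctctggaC
Hba-a2: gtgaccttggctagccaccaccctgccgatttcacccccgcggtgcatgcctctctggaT
Rps15a: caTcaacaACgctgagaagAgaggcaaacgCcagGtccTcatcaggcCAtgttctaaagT
Rps15a-ps8: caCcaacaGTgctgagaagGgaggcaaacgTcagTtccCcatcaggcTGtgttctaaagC

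**Figure D5:**
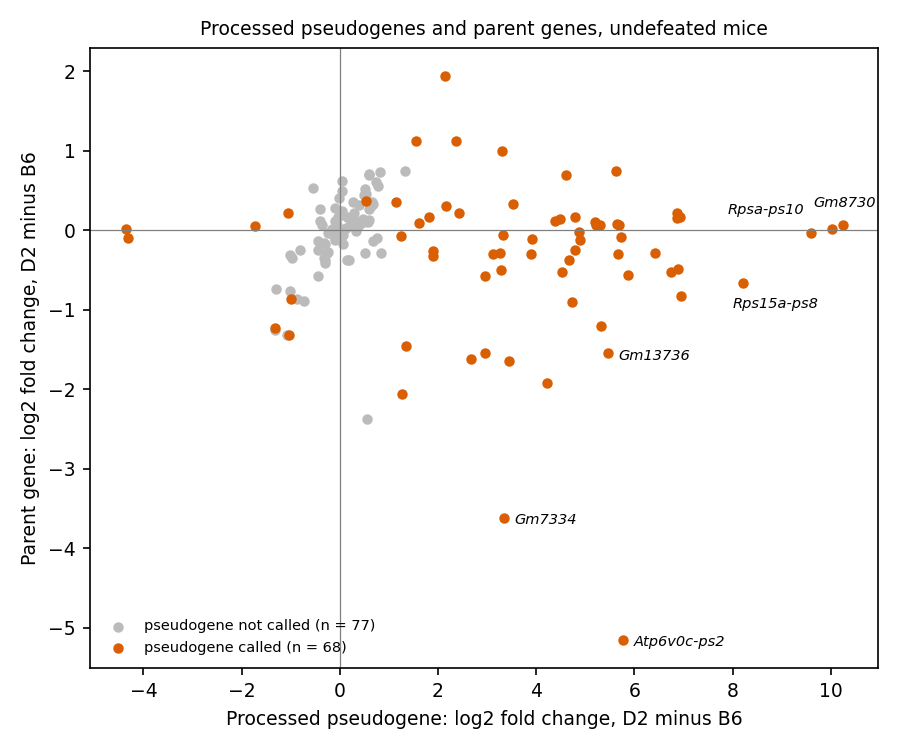
log2 fold change, D2 minus B6, of each processed pseudogene (x axis) and of its parent gene (y axis) in undefeated mice, for 145 pseudogenes with a measured parent. Orange points are the 68 called pseudogenes. Most of them lie to the right of 0 with a parent near 0, and Atp6v0c-ps2 and Gm7334 lie lowest.

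Called genes were spread over the genome, with 14.9% to 23.2% of the genes of each autosome called. In windows of 5 megabases with at least 20 measured genes, a median of 16.7% of genes was called, and 5 of 257 windows reached 40%. The window of chromosome 12 at 115 to 120 megabases, with immunoglobulin heavy chain variable genes, had the highest share, 15 of 23 genes (65.2%). It was followed by that of chromosome 6 at 130 to 135 megabases, with the Klra genes, at 14 of 26 (53.8%). The shares include genes that passed the authors' filter through 1 strain only and had to differ. Of the 29 lower immunoglobulin variable genes 13 were such genes, and their number in each window was not counted. By number of calls, the first windows were those of chromosome 12 at 110 to 115 megabases (28 of 92), of chromosome 1 at 170 to 175 (26 of 78) and of chromosome 2 at 125 to 130 (24 of 59). On chromosome 1, the p200 family genes Ifi213 (-5.64 ± 0.23) and Mndal (-4.94 ± 0.19) were lower in D2, near Ifi202b, which was higher, and the lectin Itln1 was higher (5.36 ± 0.75). Mndal was at 6.32 to 6.79 log2 CPM in B6 and 1.48 to 1.94 in D2. On chromosome 2, the fatty acid transporter Slc27a2 was lower (-3.89 ± 0.37), while the long noncoding RNAs A730036I17Rik (3.83 ± 0.41) and Gm14005 (2.55 ± 0.34) were higher. The window of chromosome 7 at 100 to 105 megabases, with Trim12a, Trim30d and Trim34a, had 21 of 53 genes called (39.6%).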

How the data were processed

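Blood RNA of single mice was depleted of ribosomal and globin RNA, made into stranded libraries and read as single ends of 75 bases. The authors trimmed reads, aligned them with STAR to GRCm38, counted them over exons of Ensembl release 86 with HTSeq, kept genes of at least 1 CPM in at least 6 samples and deposited voom values, that is log2 CPM with a pseudocount of 0.5 reads. Inverting that formula returned integer read numbers for all deposited values (tolerance 0.0001), which gave the depth, 11637152 to 15281405 reads per undefeated mouse. It also gave the effective library size to which the values of each mouse were scaled.

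Values were fitted with limma 3.58.1 in R 4.3.3 on all 25 blood mRNA mice in 5 groups, with empirical Bayes moderation and a mean-variance trend. Contrasts were D2 minus B6 in undefeated mice, the same in susceptible mice, and their difference, each two-sided with Benjamini-Hochberg adjustment over 13084 genes. Named single genes were also tested by a two-sided exact permutation test. Gene lists were counted, not tested. Groups followed the column names. The fit was tested on simulated data. Symbols, positions and transcripts came from GENCODE M21, in which 25 genes had no entry, and promoters from RefSeq. Pairs were aligned with Biopython 1.88.

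Named genes were the 10 largest and 10 smallest fold changes among called genes without overlap, the 5 smallest adjusted p-values in each direction, members of the list of known variant genes, up to 4 called members of other lists with the largest changes and the best measured blood cell markers, and up to 4 genes in each of the 3 windows with most calls. Others are stated as chosen after their values were seen. The members, lists and rules were chosen with earlier results of these data known. Alternatives changed the grouping of the D2 mice, the mice fitted, variance model, weights, scaling, pseudocount, filter and call rule. The microRNA, AGO2 and brain files were not used, and a few genes that the rule names are not reported here.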

Additional observations from a re-analysis of the deposited data

Results flagged for a closer look

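In the genes named with a value, each strain's 5 undefeated values were tested for a mouse that stood apart by Dixon's test at the 95% level. Of 198 groups of 5 values, 16 had such a mouse, and chance flags about 1 in 20 groups, or 9.9 here. The D2 mouse ED6_38 was the highest for the platelet genes P2rx1 (9.07 log2 CPM, the others 8.13 to 8.20), Ppbp (13.04, the others 12.04 to 12.26) and Gp1bb (6.09, the others 4.92 to 5.24), and for Gzma (7.70, the others 5.68 to 6.12). The D2 mouse ED6_40 was the highest for Ermap (9.04, the others 7.66 to 7.93), Atp5j2 (6.20, the others 5.63 to 5.77) and A730036I17Rik (4.75, the others 3.57 to 3.77), and the lowest for Klf9 (0.42, the others 1.32 to 1.66) and Gm22513 (-1.63, which is 3 reads, the others -0.47 to -0.04). The D2 mouse ED3_12 was the lowest for Hspa8 (6.35, the others 6.64 to 6.71).

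Among B6 mice, EC3_12 was the highest for Hbb-bs (15.30, the others 14.89 to 14.98) and the lowest for Klf9 (1.51, the others 2.56 to 2.72). EC3_15 was the lowest for A730036I17Rik (-1.62, which is 4 reads, the others 0.31 to 0.59) and Slc25a38 (3.80, the others 4.17 to 4.27). EC4_19 was the highest for Fpr2 (3.66, the others 2.35 to 2.67) and Klra17 (1.74, the others 0.64 to 0.91).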

How the results depend on the processing

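In undefeated mice 2439 genes were called. The count was 1447 with the number of the mouse name as a model term, 3903 at an unadjusted p under 0.05 with a fold of at least 1.2, and 1157 at a fold of at least 2. Scaling to library totals gave 1994 calls, of which 1572 were among the 2439. The count lay between 1977 and 2564 when each of 20 mice was left out in turn. In susceptible mice, 1889 were called, 3232 at an unadjusted p and 985 at a fold of at least 2, with 1551 to 1977 when single mice were left out. The interaction called 0 genes in every limma fit run, with 1321 at an unadjusted p under 0.05 and a fold of at least 1.2, and 0 when single mice were left out.

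Interferon-stimulated genes lower in D2 numbered 32, or 20 after scaling to library totals, and 27 to 32 when single mice were left out. Platelet genes higher in D2 numbered 12, and 7 to 15 when single mice were left out. B cell genes lower in D2 numbered 11, or 5 with the groups of the labels, 19 with only the undefeated mice, 1 after scaling to library totals and 1 with the number of the mouse name as a term, and 5 to 14 when single mice were left out (6 without EC4_20, 7 without EC3_12 or ED6_40, 5 without EC3_15 or ED6_38). Natural killer genes lower in D2 numbered 13, or 8 among genes with a mean above 2 log2 CPM, and 11 to 17 when single mice were left out. Processed pseudogenes higher in D2 numbered 63, or 10 under the same filter, which leaves fewer genes to test, and 60 to 65 when single mice were left out. These list counts under alternatives were chosen after seeing the data. Otherwise the cause of each change was not tested.

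Of 102 called genes named with a value, 86 stayed called under each of the 32 alternatives that tested them, and 0 changed sign. The 16 that lost the call under some alternative were Atp5j2, Bank1, Cd8b1, Cxcr2, Fpr2, Hspa8, Ifit2, Klf9, Klrd1, Ly9, Mx1, Nlrp1b, Padi4, Slamf7, Spib and Wdfy1. Of the genes not called, Glo1 was called under 4 alternatives, Hbb-bt under 2 and Gzma under 1. Rplp0, at 0.06 and not called, was at -0.08 with the groups of the labels, -0.02 with sample weights and -0.05 without ED6_40. Rpsa, at 0.02 and not called, was at -0.09 after quantile normalization, -0.05 with the number term, -0.01 without EC4_19, -0.05 without ED6_39 and -0.03 without ED6_40. No paired analysis was possible because the labels match no mouse of 1 strain to a mouse of the other. The number in the mouse name, of which 3 and 4 occur in both strains and 6 in D2 only, was fitted as a term instead, with the 1447 calls given above. With 5 mice per strain, the exact test of a single gene cannot go below 0.00794, and genes of a few reads per mouse have wide intervals.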
